A study of Mus musculus with 43 samples.

Results

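Microtubules are built from dimers of alpha- and beta-tubulin, and mammals encode several near-identical forms of each protein, called isotypes, in separate genes. Many isotypes differ most in the acidic tail at the end of the protein, which carries chains of added glutamate and is read by motors and microtubule-associated proteins. In neurons, microtubules hold up axons and dendrites and carry vesicles between the cell body and the synapse. Cells also limit tubulin made in excess by destroying tubulin mRNA while it is translated, a step that reads the opening residues of the new chain.

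The genes described here were 6 tubulin isotype genes, taken from a table of 10127 genes by symbol, and all 6 were found. They were Tubb3, a beta-tubulin used as a marker of neurons, Tubb2a and Tubb2b, a closely related pair abundant in brain, Tubb4a, a beta-tubulin of neurons and oligodendrocytes, Tubb4b, a broadly expressed beta-tubulin also found in cilia, and Tuba1a, the main alpha-tubulin of neurons. Tubb3 was selected on these data, because its fasting change differed most between nuclei. Its fasting changes are therefore given as a description with no test. The other 5 members were tested for both fasting change and level. For Tubb3, levels were tested only between pairs of nuclei without ARC.

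RNA was sequenced from the arcuate nucleus (ARC), dorsomedial hypothalamus (DMH), paraventricular nucleus (PVN) and ventromedial hypothalamus (VMH) of adult male mice on a C57/BL6 background. Every mouse, fed ad libitum or fasted for 24 hours, carried a deletion of the Snord116 cluster on the paternal chromosome (strain B6(Cg)-Snord116tm1.1Uta/J), so no comparison here is with wild-type mice. Nuclei were cut from frozen sections by laser capture, and the amplified RNA therefore came from neurons, glia and vessels together. The 41 libraries came from 12 mice in 3 batches, with 4 fasted and 5 fed libraries in ARC, 5 and 6 in DMH, 5 and 5 in PVN, and 6 and 5 in VMH.

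The reads behind the CPM scale, worked out from the step between low values, were 1.94 to 8.23 M (mega) per library, with a median of 4.10 M. These are not the sequenced reads, for which the paper gives a higher average per sample. A mouse is named here by its state and number, as in Fast-86. Markers of the nuclei stood where their names place them, with Npy at 473 ± 338 CPM (SD, n = 9) in ARC, Avp at 800.4 ± 343 CPM (n = 10) in PVN, Fezf1 at 219 ± 30.5 CPM (n = 11) in VMH and Npvf at 95.2 ± 48.4 CPM (n = 11) in DMH. Each of these genes had a mean of at most 8.71 CPM in every other nucleus. Neuronal markers led by Syp and Syt1 summed to 1460 to 2665 CPM over 5 genes.

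The members lie on separate chromosomes apart from the Tubb2a and Tubb2b pair. In GRCm38, Tubb3 spans 123411424 to 123422015 on the plus strand of chromosome 8, and Tuba1a spans 98949837 to 98953703 on the minus strand of chromosome 15. Tubb2a (34074274 to 34078007) and Tubb2b (34126748 to 34130466) are on the minus strand of chromosome 13. Tubb4a (57080066 to 57087782) is on the minus strand of chromosome 17, and Tubb4b (25222160 to 25224702) is on the minus strand of chromosome 2. The transcript used for each gene has 4 exons.

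The coding bases show how far reads can tell the members apart. The last 20 codons before the stop, which encode the acidic tail, were read from the GENCODE transcripts and are shown 5′ to 3′ for the 5 beta-tubulin genes, with capitals marking the bases at which Tubb2a and Tubb2b differ.
Tubb3: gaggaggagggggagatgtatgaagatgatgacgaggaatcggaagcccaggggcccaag
Tubb2a: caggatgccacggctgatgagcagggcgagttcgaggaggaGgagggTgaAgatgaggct
Tubb2b: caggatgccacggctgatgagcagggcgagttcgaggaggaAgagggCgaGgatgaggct
Tubb4a: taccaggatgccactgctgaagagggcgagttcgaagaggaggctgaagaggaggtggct
Tubb4b: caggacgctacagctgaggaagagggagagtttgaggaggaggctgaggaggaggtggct

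These tails held 8 to 10 GAG or GAA codons each, the codons of glutamate. Tubb2a and Tubb2b differed at 3 of 60 tail bases, which left 0 of 20 codons encoding another residue, and were identical at 96.5% of coding bases. Tubb3 was identical to the other beta-tubulin members at 82.1% to 83.6% of coding bases, and Tuba1a matched the beta-tubulins at 56.2% to 57.9%. At the other end, the first 10 codons are shown for Tubb3 and Tubb4a, the members that share least sequence with other genes, with capitals for the first 4 codons, which encode the residues read when tubulin mRNA is destroyed.
Tubb3: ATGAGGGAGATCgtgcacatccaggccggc
Tubb4a: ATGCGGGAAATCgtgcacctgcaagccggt

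Sharing of reads could matter for some members and not for others. Of the 50-base stretches in each transcript, none of Tubb3 (0 of 1819) and 0.184% of Tubb4a occurred in transcripts of another gene. The share was 39.3% for Tubb2b and 49.6% for Tubb2a, mostly with each other, and 55.5% for Tubb4b, shared with Tubb4b-ps1, Tubb4b-ps2, Gm16165 and Fam166a and mostly with the first of these (43.6%). It was 75.5% for Tuba1a, shared with Tuba1c, Tuba1b and others. The levels of these 4 genes are uncertain to that extent, since how the authors counted reads that map to several genes is not given in the sources used here.

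Tubb4a was the most abundant of the 6 genes per unit of length, and Tubb2b the least. Levels between genes are compared as CPM per kb of exon, where CPM is the read count scaled to a common library total. Tubb4a had 381 ± 89.4 CPM per kb (SD over 41 libraries), Tuba1a 273 ± 59.0, Tubb2a 134 ± 28.8, Tubb4b 111.4 ± 21.3, Tubb3 76.0 ± 19.7 and Tubb2b 25.8 ± 6.13. The order of Tubb2a and Tubb4b rests on the exon length of Tubb4b, 2088 bases, whereas the transcript used for its sequence has 1598. Tubb2a has 1610 bases by either measure and a lower mean CPM (216 against 233). By transcript length Tubb4b would therefore stand above Tubb2a. By mean CPM, Tubb4a stood at the 99.6th percentile of the table and Tubb2b at the 77.4th. The lowest value of any member was 33.0 CPM, for Tubb2b in one fasted VMH library, and every value rested on at least 74 reads by the depth read from the table.

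Among the 5 beta-tubulin genes measured here, Tubb4a made up 52.0% ± 6.10 (SD, n = 41) of the summed CPM per kb. Tubb2a held 18.6% ± 3.28, Tubb4b 15.4% ± 2.62, Tubb3 10.4% ± 2.17 and Tubb2b 3.62% ± 1.00. The order of Tubb2a and Tubb4b depends on the exon length used, as above. The share of Tubb3 was 12.8% ± 1.06 in PVN (n = 10) and lay between 9.60% and 9.67% on average in the other nuclei. The share of Tubb4a was 57.0% ± 5.18 in VMH (n = 11) and 48.1% ± 5.53 in PVN. Other beta-tubulin genes, among them Tubb5, were not analysed here, so these are shares of the measured genes.

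The first comparison asked whether tubulin levels differed between nuclei. Tubb3 was highest in PVN, Tubb4a was highest in VMH, and the mean over both states was lowest in ARC for 4 of the 5 beta-tubulins, which for Tubb3 did not hold in fed mice alone. The level of the 5 members other than Tubb3 differed between nuclei in the limma F-test with Benjamini-Hochberg adjustment. Its adjusted p was 2.0e-09 for Tubb4a, 0.0021 for Tubb4b, 0.0035 for Tubb2a, 0.018 for Tuba1a and 0.062 for Tubb2b. For Tubb3 the F-test is not given, because it uses the libraries whose values took part in its selection. This test called 43.0% of all 10121 genes, so a difference between nuclei was common in this table.

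**Figure D1:**
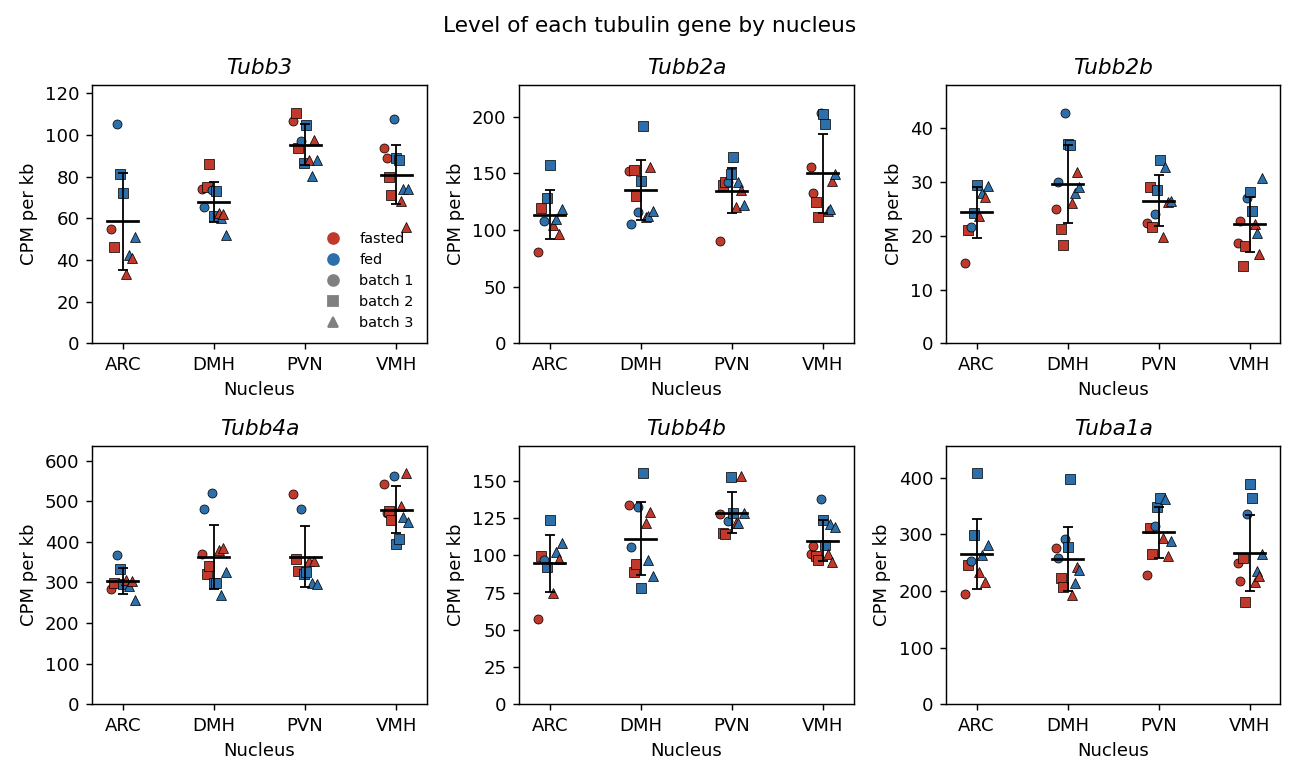
Level of each tubulin gene in CPM per kb of exon (y axis, linear from 0) by nucleus (x axis). Each point is a library, coloured by nutritional state and shaped by batch, and black bars give the mean ± SD. Tubb3 points sit highest in PVN, and Tubb4a points highest in VMH.

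By its mean over both states, Tubb3 followed the order PVN, VMH, DMH, ARC. Its level was 178 ± 18.4 CPM in PVN (SD, n = 10), 151 ± 26.6 in VMH (n = 11), 126.5 ± 17.8 in DMH (n = 11) and 110 ± 43.3 in ARC (n = 9). Values ran from 150.4 to 207 CPM in PVN, 105 to 201.0 in VMH, 96.8 to 161 in DMH and 62.6 to 197 in ARC. The ranges of PVN and DMH therefore met only between 150.4 and 161 CPM, and ARC had the widest spread. The place of ARC differed by state. In fed mice the mean was 132 CPM in ARC and 119.96 in DMH, and in fasted mice 82.1 in ARC and 134 in DMH, whereas PVN and VMH stood first and second in both states.

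The Tubb3 differences between nuclei are given with no test, because the libraries compared took part in the selection of this gene. On the log2 scale (limma with mouse as a block, states weighted equally), ARC minus DMH was -0.32, with a sign that came from the fasted ARC libraries. ARC minus PVN was -0.81, with 8 of 9 mice lower in ARC, and ARC minus VMH was -0.54, with 9 of 9 mice lower. In fed mice the means were 132 CPM in ARC, 171 in PVN and 162 in VMH, and in fasted mice 82.1, 186 and 142. The pairs without ARC each had the same direction in the means of both states. DMH minus PVN was -0.49, with 10 of 10 mice lower in DMH. PVN minus VMH was 0.27, with 8 of 10 mice higher in PVN. The pair DMH and VMH was closest, at -0.22, with 8 of 10 mice lower in DMH, and -0.26 to -0.19 when each mouse was left out.

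Tubb2a was also lowest in ARC. It stood at 242 ± 56.0 CPM in VMH, 218 ± 42.7 in DMH, 217 ± 32.5 in PVN and 183 ± 34.9 in ARC. ARC differed from VMH (-0.40 ± 0.09, adjusted p = 0.00076, 9 of 9 mice), from DMH (-0.30 ± 0.09, 0.020, 8 of 9 mice) and from PVN (-0.27 ± 0.09, 0.038, 9 of 9 mice). The last of these calls was lost without mouse Fast-311 (adjusted p = 0.123). The pairs among DMH, PVN and VMH did not pass the threshold, with adjusted p of 0.307 to 0.867.

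Its close relative Tubb2b had another order. It was at 68.1 ± 16.7 CPM in DMH, 60.9 ± 10.9 in PVN, 56.0 ± 10.8 in ARC and 50.9 ± 11.8 in VMH. Only DMH against VMH passed (0.39 ± 0.13, adjusted p = 0.031, higher in DMH in 9 of 10 mice), and that call was lost without mouse Fast-311 (0.123). The F-test of Tubb2b was likewise lost, at 0.111 to 0.155, without any 1 of mice Fast-100, Fed-111, Fed-125, Fed-127 and Fast-311.

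Tubb4a had its highest mean in VMH, where its range overlapped those of DMH and PVN but not that of ARC. It was at 1068 ± 128 CPM in VMH, 809 ± 167 in PVN, 808 ± 173 in DMH and 676 ± 70.3 in ARC. VMH was above ARC by a log2 difference of 0.66 (ARC minus VMH, -0.66 ± 0.07, adjusted p = 4.5e-10, 9 of 9 mice), above DMH (-0.45 ± 0.07, 1.3e-06, 10 of 10 mice) and above PVN (-0.40 ± 0.07, 6.5e-06, 9 of 10 mice). ARC was also below PVN (-0.26 ± 0.07, 0.0062, 8 of 9 mice) and DMH (-0.21 ± 0.07, 0.032, 7 of 9 mice). The ARC and DMH call was lost without mouse Fed-111 (0.120) or mouse Fed-313 (0.104). DMH and PVN did not differ beyond their spread (-0.05 ± 0.07, adjusted p = 0.714).

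Further measures are set beside Tubb4a, written here as values only. Oligodendrocyte genes, led by Mbp and summed over the 7 measured of 10 listed, were at 1349 ± 200.7 CPM in VMH, 821 ± 304.8 in DMH, 497 ± 91.5 in PVN and 460 ± 204 in ARC. Over 41 libraries that share mice, batches and amplification, the correlation of Tubb4a with this sum was 0.71 on the log2 scale, and 0.38 after centring on each nucleus. After the same centring it was 0.61 with the sum of 7 microglial genes and 0.32 with that of 4 astrocyte genes. With the sum of 5 neuronal markers the correlation of Tubb4a was 0.41, and -0.24 after centring. Batch 1 libraries were also high in PVN, where Tubb4a was 1072 and 1151 CPM in the 2 libraries of batch 1 and 660.2 to 796 CPM in the 8 others. In fed DMH the 2 batch 1 libraries were at 1073 and 1159 CPM and the 4 others at 597 to 725 CPM, whereas in fasted DMH the batch 1 library, at 823 CPM, lay within the range of the others, 715 to 860 CPM. The part of oligodendrocyte, microglial and astrocyte RNA and of batch in the level of Tubb4a was not tested, and in bulk RNA fewer cells of a type and less RNA per cell cannot be told apart.

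**Figure D2:**
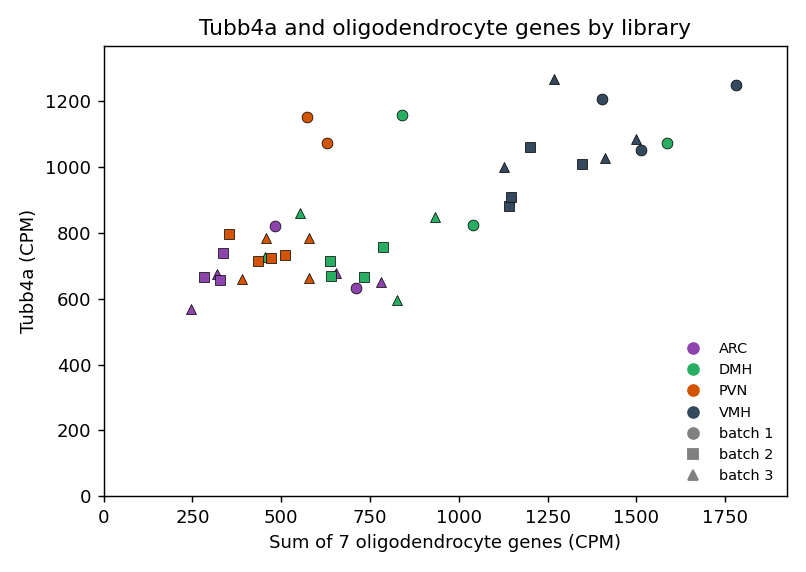
Tubb4a (y axis, CPM) against the sum of 7 oligodendrocyte genes (x axis, CPM), with a point for each of 41 libraries coloured by nucleus and shaped by batch. VMH libraries lie at the upper right, and the 2 batch 1 libraries of PVN stand at 1151 and 1072 CPM of Tubb4a at oligodendrocyte sums of 573 and 627 CPM.

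Tuba1a and, by its mean, Tubb4b stood highest in PVN. Tubb4b was at 269 ± 29.0 CPM in PVN, 232 ± 51.3 in DMH, 229 ± 28.3 in VMH and 198 ± 40.1 in ARC. ARC differed from PVN (-0.50 ± 0.11, adjusted p = 0.00052, 9 of 9 mice), VMH (-0.29 ± 0.11, 0.044, 7 of 9 mice) and DMH (-0.27 ± 0.11, 0.086, lower in ARC in 5 of 9 mice and higher in 4). The DMH call was lost without any 1 of mice Fast-86, Fed-111, Fed-127, Fast-305, Fed-308 and Fast-311 (0.102 to 0.387), and the VMH call without mouse Fast-86, Fed-111 or Fast-305 (0.103 to 0.196). PVN did not pass against DMH (DMH minus PVN, -0.23 ± 0.10, adjusted p = 0.134) or VMH (PVN minus VMH, 0.22 ± 0.10, 0.114), and each of these pairs was called in 4 of 20 alternatives.

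Tuba1a was at 548 ± 81.7 CPM in PVN, 482 ± 120 in VMH, 480 ± 111.5 in ARC and 462 ± 102 in DMH. PVN differed from DMH (DMH minus PVN, -0.26 ± 0.08, adjusted p = 0.015, 8 of 10 mice), ARC (ARC minus PVN, -0.25 ± 0.08, 0.029, 8 of 9 mice) and VMH (PVN minus VMH, 0.20 ± 0.08, 0.048, 8 of 10 mice). The VMH call was lost without mouse Fast-101 (0.139) or mouse Fed-308 (0.218). Without mouse as a block, the ARC and VMH calls were both lost (0.114 and 0.112). The levels in ARC, DMH and VMH did not differ beyond their spread, with adjusted p of 0.663 to 0.941.

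Counted by pair, the share of members called is to be read against the share of all genes called. Only the 5 members other than Tubb3 were counted. Between ARC and DMH 3 of the 5 were called (17.6% of all genes). Between ARC and PVN those called were Tubb2a, Tubb4a, Tubb4b and Tuba1a (16.9%), and between ARC and VMH Tubb2a, Tubb4a and Tubb4b (30.2%). Between DMH and PVN Tuba1a was called (18.5%), between DMH and VMH Tubb2b and Tubb4a (22.6%), and between PVN and VMH Tubb4a and Tuba1a (31.9%). Every member stood at or above the 77.4th percentile of mean CPM.

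The second comparison asked how each gene stood in fasted against fed mice. Tuba1a and Tubb2b were lower in fasted mice in all 4 nuclei, differences of Tubb4a lay between -0.04 and 0.15, and Tubb3 was lower in fasted mice in ARC and VMH and higher in DMH and PVN. None of the 5 tested members passed an adjusted p under 0.1 in any nucleus. The same tests called 0.367% of all genes in PVN, 0.176% in ARC, 0.0208% in VMH and 0.0103% in DMH, so few genes of any kind passed.

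**Figure D3:**
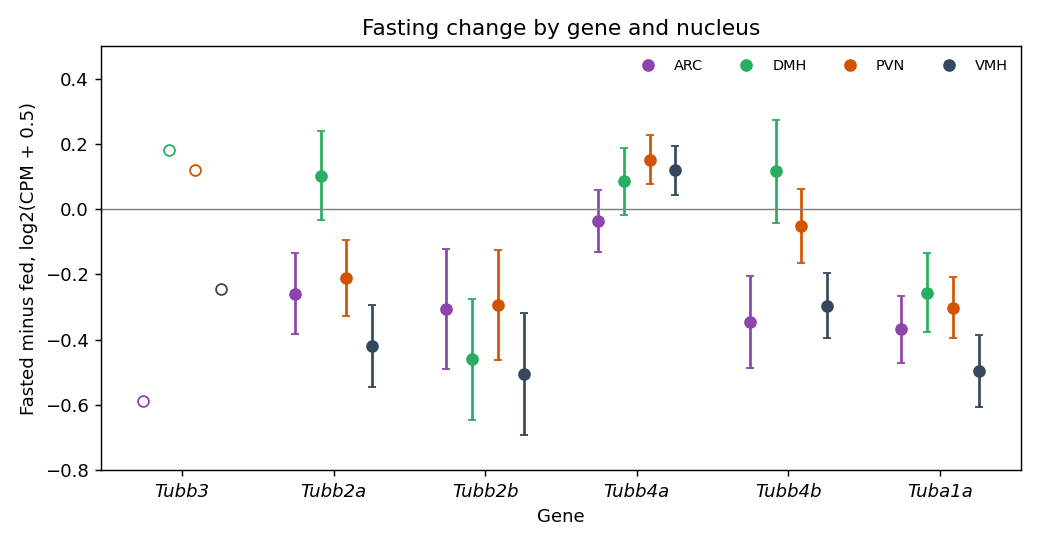
Fasted minus fed difference on the log2(CPM + 0.5) scale (y axis) for each gene (x axis), coloured by nucleus. Filled points carry ± 1 SE from limma with batch as a covariate, and Tubb3, selected on this contrast, is drawn open and without error bars. All 4 points lie below 0 for Tubb2b and for Tuba1a.

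Tubb3, the neuronal isotype, had its widest gap between states in ARC. The fasted ARC libraries were at 62.6, 76.5, 86.4 and 103 CPM, and the fed ones at 79.4, 95.2, 135, 152 and 197 CPM. The groups overlapped, because the 2 fed libraries of batch 3 lay among the fasted ones. Group means were 82.1 CPM fasted and 132 CPM fed, and the batch-adjusted log2 difference was -0.59, with -0.69 to -0.49 when each library was left out. Within batches it was -0.93 in batch 1 (1 library against 1), -0.72 in batch 2 (1 against 2) and -0.33 in batch 3 (2 against 2).

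In the other nuclei the Tubb3 differences were smaller. In DMH the fasted libraries were at 116, 117, 138, 140 and 161 CPM, and the 6 fed ones ran from 96.8 through a median of 118 to 137 CPM, a log2 difference of 0.18. In PVN the fasted values were 164, 175, 183, 199 and 207 CPM and the fed values 150.4, 161, 165, 182 and 195 CPM, a difference of 0.12. In VMH the 6 fasted libraries ran from 105 through a median of 141 to 175 CPM, against 138, 139, 164, 166 and 201.0 CPM in the fed, a difference of -0.24. Fed and fasted libraries overlapped in each of these nuclei.

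**Figure D4:**
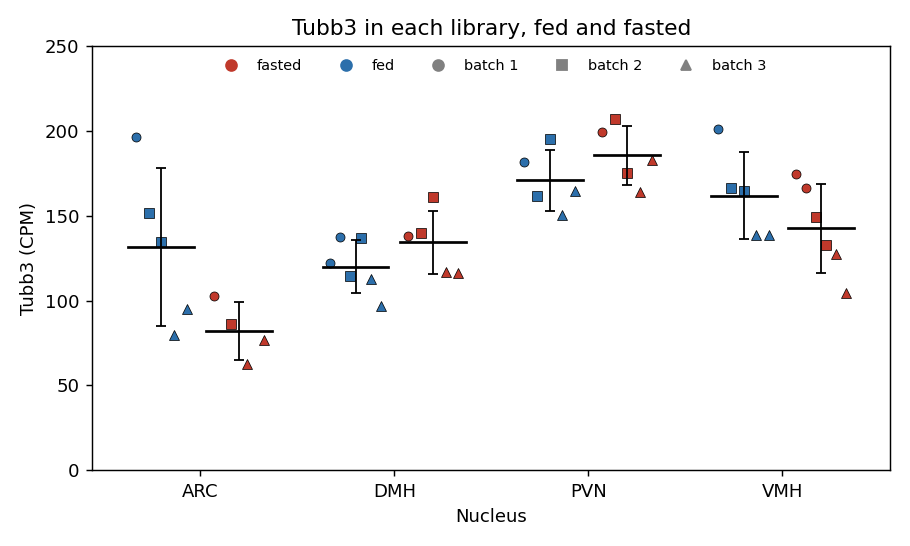
Tubb3 in CPM (y axis, linear from 0) in each library, fed (blue) and fasted (red), by nucleus (x axis), with the mean ± SD in black and the batch as the point shape. In ARC, the fasted libraries lie at 62.6 to 103 CPM and the fed ones at 79.4 to 197 CPM.

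Other values in ARC are given beside those of Tubb3. The summed level of 7 microglial genes was 111.1 to 162 CPM in fasted ARC and 131 to 226 CPM in fed ARC, and that of 5 vessel genes was 51.9 to 77.0 against 71.7 to 110 CPM. The sum of 5 neuronal markers was 1590 to 1956 CPM fasted and 1460 to 2003 CPM fed. Over the 41 libraries of all nuclei, the correlation of Tubb3 with the neuronal sum was -0.02 on the log2 scale and -0.45 after centring on nucleus. It was 0.19 and 0.53 with the microglial sum, 0.54 and 0.14 with the vessel sum, and -0.51 and 0.06 with that of 3 ependymal and tanycyte genes. No microglial or vessel gene passed the test in ARC, and the neuronal, microglial and vessel genes were above 0 in every library, while 2 of the 3 ependymal and tanycyte genes were at 0 in some (Foxj1 in 3 and Gpr50 in 1 of 41). The part of cell composition in the Tubb3 values was not tested.

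Whether a fasting change differed between nuclei was tested with an F-test of the nucleus by state terms. Of 10121 genes, 0 (0%) passed in limma at an adjusted p under 0.1, with 563 at an unadjusted p under 0.05. For the members not selected on this contrast, the adjusted p was 0.853 for Tubb2a, 0.887 for Tubb4b, 0.946 for Tubb4a, 0.947 for Tuba1a and 0.983 for Tubb2b. No difference between nuclei in the fasting change of these 5 genes was therefore detected.

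Tuba1a, which supplies alpha-tubulin to neurons, had the smallest adjusted p of the 5 tested members in ARC, PVN and VMH. In ARC the fasted libraries were at 351, 390.3, 421 and 444 CPM and the fed ones at 455, 475, 507, 538 and 735 CPM. These groups did not overlap, which held for 2.13% of all genes in ARC. The log2 difference was -0.37 ± 0.10 (SE), with an adjusted p of 0.306.

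In VMH the 6 fasted Tuba1a libraries ran from 327 through a median of 401 to 465.7 CPM, and the fed values were 423, 479, 606, 656 and 703 CPM. The difference was -0.50 ± 0.11 (adjusted p = 0.223) and the groups overlapped, because the lowest fed library lay below the 2 highest fasted ones. In PVN the fasted values of 412, 473, 478, 529 and 562 CPM lay mostly below the fed values of 519, 566, 628, 652 and 657 CPM, a difference of -0.30 ± 0.09 (0.255). In DMH the fasted values were 348, 373, 402, 438 and 496 CPM and the 6 fed values ran from 385 through a median of 483 to 717 CPM, a difference of -0.26 ± 0.12 (0.752) that was -0.13 without the library of mouse Fed-127. Within batches, 11 of the 12 nucleus-by-batch differences of Tuba1a were below 0, the exception being 0.003 in batch 1 of DMH. The same mice recur in several nuclei, so these 12 differences are not independent. The count below 0 was 11 for Tubb2b, 10 for Tubb2a, 8 for Tubb4b, 6 for Tubb3 and 4 for Tubb4a.

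Tubb2b, the less abundant of the paired isotypes, showed differences of like size. In VMH the 6 fasted libraries ran from 33.0 through a median of 42.1 to 52.4 CPM and the fed ones were at 47.3, 56.7, 61.9, 64.7 and 70.5 CPM, a log2 difference of -0.50 ± 0.19 (adjusted p = 0.610). In DMH the fasted values were 42.1, 48.7, 57.4, 60.01 and 73.2 CPM against a fed range of 64.1 to 98.5 CPM with a median of 76.8, a difference of -0.46 ± 0.19 (0.695). The differences were -0.31 ± 0.18 in ARC (0.685) and -0.29 ± 0.17 in PVN (0.598). All 4 pairs of groups overlapped, and 11 of 12 within-batch differences were below 0.

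Tubb2a was lower in fasted mice in ARC, PVN and VMH and higher in DMH, with none of these differences called. In VMH the 6 fasted libraries lay at 179 to 251 CPM with a median of 208, and the fed ones at 191, 240.0, 311.2, 326 and 328 CPM, a difference of -0.42 ± 0.12 (adjusted p = 0.474). The 3 highest fed libraries were above every fasted library. The differences in ARC (-0.26 ± 0.12, 0.612) and PVN (-0.21 ± 0.12, 0.583) were smaller, and the PVN value was -0.10 without mouse Fast-86 or mouse Fed-111, the batch 1 libraries there. In DMH the difference was 0.10 ± 0.14 (0.926), at -0.02 without the library of mouse Fast-86 and 0.21 without that of mouse Fed-127.

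Tubb4b did not overlap between states in VMH. The 6 fasted libraries ran from 199.999 through a median of 210 to 221 CPM, and the fed ones were at 223, 248, 252, 258 and 288 CPM. Such separation held for 0.5% of all genes in VMH, and here it rested on a gap of under 2 CPM between the nearest libraries. The difference was -0.30 ± 0.10 with an adjusted p of 0.547. It was -0.35 ± 0.14 in ARC (0.554), 0.12 ± 0.16 in DMH (0.928) and -0.05 ± 0.11 in PVN (0.925). The ARC value was -0.22 without mouse Fast-86 or mouse Fed-111, the DMH value 0.31 without mouse Fed-127 and 0.03 without mouse Fed-125, and the PVN value -0.13 without mouse Fast-311 and 0.02 without mouse Fed-125. In DMH and PVN no member separated the states, where 0.4% and 1.31% of all genes did.

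Tubb4a, the most abundant member, had differences of either sign. They were 0.15 ± 0.08 in PVN (adjusted p = 0.525), 0.12 ± 0.08 in VMH (0.816), 0.09 ± 0.10 in DMH (0.918) and -0.04 ± 0.10 in ARC (0.938). Group means in ARC were 663 CPM fasted and 688 CPM fed. The ARC difference was 0.06 without mouse Fast-86 or mouse Fed-111, the only batch 1 libraries of that nucleus, and -0.11 without the library of mouse Fed-313. In DMH it was 0.26 without mouse Fast-86 and 0.0036 without mouse Fed-308, and in VMH 0.21 without mouse Fed-111 and 0.08 without mouse Fast-311.

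The same mice gave several nuclei, so the fasting difference was also taken per mouse. Each library's log2 value was centred on the midpoint of the fed and fasted means of its nucleus. Centred values were averaged over the libraries of a mouse, for the 5 fasted and 5 fed mice with 3 or 4 libraries. Fasted and fed mice were then compared with batch as a covariate. This comparison was added after the data were seen, and on simulated data 18.7% of its calls were false where 10% was intended. It called 0.0324% of genes (3 of 9247), with 0 in each of the 10 fits without 1 mouse, and none of the 5 tested members passed.

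Tubb2b mouse means ran from -0.40 to -0.01 in fasted mice and from 0.11 to 0.31 in fed mice, so that the states did not overlap. Its difference was -0.41 ± 0.09 (SE), with an adjusted p of 0.1995, and -0.46 to -0.36 when each mouse was left out. Tuba1a mouse means ran from -0.33 to -0.05 fasted and from -0.02 to 0.52 fed, also with no overlap, a difference of -0.39 ± 0.11 (adjusted p = 0.256). Such separation held for 1.43% of genes.

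The other members overlapped between states in this measure. The difference was -0.22 ± 0.10 for Tubb2a (adjusted p = 0.447), -0.16 ± 0.09 for Tubb4b (0.551) and 0.08 ± 0.09 for Tubb4a (0.760), which was 0.05 to 0.17 when each mouse was left out. For Tubb3 it was -0.13, given with no test, with means of -0.27 to 0.13 in fasted and -0.20 to 0.40 in fed mice.

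**Figure D5:**
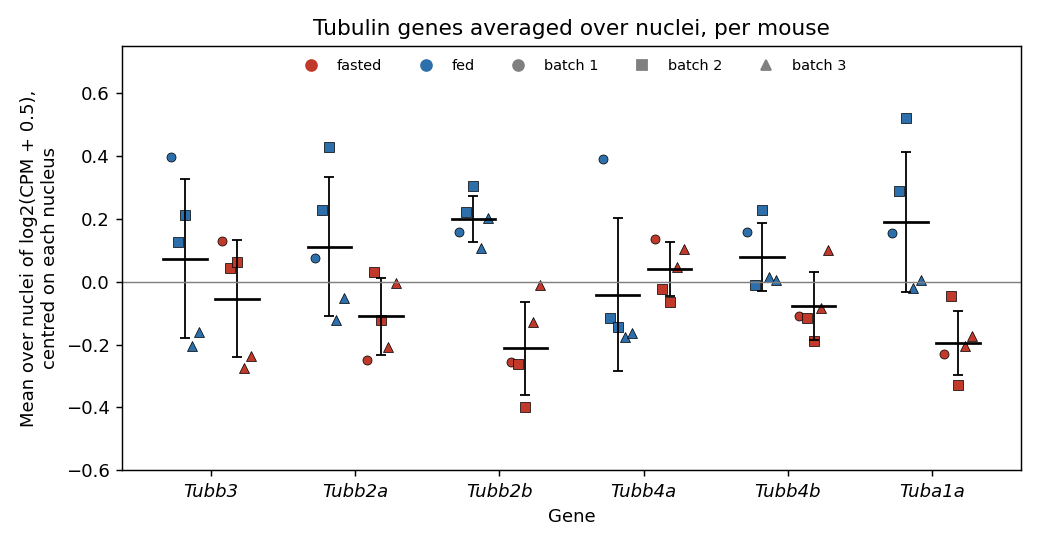
Log2(CPM + 0.5) centred on each nucleus and averaged per mouse (y axis) for each gene (x axis), for 5 fed (blue) and 5 fasted (red) mice, with the mean ± SD in black and the batch as the point shape. Fed and fasted mice do not overlap for Tubb2b and Tuba1a.

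Members varied together to different degrees across libraries. After centring on nucleus, Tubb2a and Tuba1a had a Pearson correlation of 0.82 over 41 libraries, Tubb2b and Tuba1a 0.64, and Tubb4b 0.53 with Tuba1a and 0.52 with Tubb2b. Tubb3 had 0.33 with Tubb2a and -0.01 with Tubb2b. Tubb4a had -0.29 with Tubb2a and -0.17 with Tuba1a. Libraries share mice, batches and depth, and Tubb2a, Tubb2b and other members share sequence, so these values are descriptions.

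The genes whose levels ran most like those of each member were taken from 7516 genes with a mean of at least 5 CPM. For Tubb3 they were Aldoa, a glycolytic enzyme (r = 0.71), Dpyd, an enzyme of pyrimidine breakdown (0.71), Cadm1, an adhesion molecule of synapses (0.71), Car4, a carbonic anhydrase (0.70), and Pcp4l1 (0.69). After centring on nucleus they were the translation factor Eef2 (0.77), the ribosomal protein gene Rps3 (0.73), Oaz1, an inhibitor of polyamine synthesis (0.71), Pygb, a glycogen phosphorylase (0.68), and Nudc, a partner of the dynein motor (0.67). The median r of all genes with Tubb3 was -0.01 in both cases.

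For Tubb4a the nearest genes were Prrt2, a presynaptic protein gene (r = 0.90), Gapdh, a glycolytic enzyme (0.82), and Actg1, a cytoplasmic actin (0.81). For Tuba1a they were Cct7, a subunit of the chaperonin that folds tubulin and actin (0.69), Chmp3 (0.63) and Chchd2 (0.59). For Tubb2a they were Pink1, a mitochondrial kinase (0.69), Ncald (0.69) and Stmn1, which binds tubulin dimers (0.67). For Tubb2b they were Nanos1 (0.63), Parp11 (0.61) and Fra10ac1 (0.59), and for Tubb4b Abcb1a, a drug transporter of brain vessels (0.68), Prkg2 (0.65) and Tmed9 (0.65). These values were not centred on nucleus, so differences between nuclei enter them. After centring, r of the same genes ran from 0.43 (Prkg2 with Tubb4b) to 0.79 (Prrt2 with Tubb4a). The median r of all genes before centring was -0.0085 with Tubb4a and 0.0037 with Tubb2b, with the other 3 members between.

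Of 14 other tubulin genes listed, 3 were measured. Tuba8, an alpha-tubulin, had mean levels of 3.13 to 5.48 CPM per kb by nucleus. Tubg1 and Tubg2, gamma-tubulins that seed microtubules, had 9.33 to 11.3 and 17.9 to 23.5 CPM per kb. The means of Tubb2b, the lowest member, were 22.2 to 29.7 CPM per kb, and in VMH that of Tubg2 was the higher. None passed the fasting test in any nucleus, with adjusted p of 0.629 to 0.980.

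Of the genes that fold, bind or modify tubulin, 1 passed a fasting test. This was Cct7 in ARC, at 191 ± 18.1 CPM fasted (SD, n = 4) and 322 ± 58.1 CPM fed (n = 5), with no overlap, a log2 difference of -0.69 ± 0.11 (SE) and an adjusted p of 0.027. Of all genes in ARC, 0.176% were called by this test, and 2.13% did not overlap between states. Without batch as a covariate no gene was called in ARC, Cct7 included. In the list of tubulin folding and assembly genes, 11 of 23 were measured, and in ARC 1 was called lower and 0 higher, with a median log2 difference of 0.01 beside 0.02 over all genes. In DMH, PVN and VMH 0 of these 11 passed, with medians of 0.07, -0.15 and -0.14.

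The remaining lists of microtubule and cytoskeletal genes held no called gene in any nucleus. These were 14 measured microtubule-associated proteins, with median differences of -0.09 to -0.05, 12 enzymes that modify or sever tubulin, with medians of -0.23 to 0.14, and 8 other cytoskeletal genes of neurons, with medians of -0.10 to -0.03. The medians of all genes lay between 0.00 and 0.02 in log2 units. For the 5 tested members the median was -0.42 in VMH (4 of 5 below 0), -0.31 in ARC (5 of 5), -0.21 in PVN (4 of 5) and 0.09 in DMH (2 of 5).

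Among markers of nuclei, Npy, which encodes an appetite-stimulating neuropeptide, was called higher in fasted ARC, at 730.3 ± 373 CPM fasted (SD, n = 4) and 267 ± 69.4 CPM fed (n = 5), a log2 difference of 1.35 ± 0.16 (SE; adjusted p = 0.0011). The groups overlapped, and like Cct7 it was not called without batch as a covariate. No marker of glia, vessels or ependyma was called between states in any nucleus. Neuronal Syp passed in PVN, at 1371 ± 151 CPM fasted and 1027 ± 161 fed (log2 difference 0.43 ± 0.09, adjusted p = 0.069), and it carries most of the neuronal sum there, at 1992 to 2169 CPM fasted and 1560 to 1875 CPM fed. Of the 5 neuronal genes in PVN 2 were above 0 and 3 below, with a median log2 difference of -0.07 beside 0.01 over all genes. The 4 astrocyte genes measured, led by Gja1, were above 0 in fasted mice for 4 of 4 in VMH (median log2 difference 0.25), 3 of 4 in PVN (0.33), 3 of 4 in DMH (0.27) and 2 of 4 in ARC (-0.09), with none called. Their sum was 227 to 282 CPM fasted and 180 to 224 CPM fed in VMH, and 209 to 343 against 182 to 258 CPM in PVN. The VMH sums did not overlap, but the nearest fasted and fed libraries were at 226.6 and 223.7 CPM. Such separation held for 0.5% of single genes in VMH. Of the 5 vessel genes, 4 were below 0 in ARC (median -0.53), 3 in DMH (-0.43), 4 in VMH (-0.27) and 2 in PVN (0.12). Of the 7 microglial genes, 6 were below 0 in ARC (-0.22) and 3 to 5 in the other nuclei (-0.07 to 0.04), and the medians of the oligodendrocyte genes lay between -0.02 and 0.11. The 3 genes of ciliated ependymal cells and tanycytes were all below 0 in ARC (-0.30), with medians of 0.12 in DMH, 0.30 in VMH and -0.19 in PVN. These genes, led by Gpr50, summed to 45.1 to 236 CPM in ARC and DMH and 4.397 to 21.9 CPM in PVN and VMH. Their part in the tubulin values was not tested.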

How the data were processed

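The authors captured nuclei by laser, amplified the RNA (Ovation RNA-Seq System V2) and mapped reads to GRCm38 with TopHat2 2.0.11 per the labels. Values were deposited as CPM per Ensembl gene, read counts brought to a common library total, and the submitters' processing notes also name Cufflinks 2.2.1, with no role given, so which tool counted reads is not given in the sources used here. Of the columns, 41 were matched to samples, 2 were not used, and 2 of 43 samples were not analysed here. The 2 unused columns are labelled as ARC of Fast-85 and Fed-92, and the 2 samples without a column as PVN of the same mice. Whether these are the same libraries was not settled. Genes between identifiers 861 and 28747 of the Ensembl numbering, 6725 annotated genes, were not analysed here. Libraries summed to 554896 to 689010 CPM. Depth was read from the step between low values, of which 96.9% to 98.6% were whole multiples of 1 read within 0.02, but values under 0.01 CPM in 101 genes kept reads from being recovered.

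Tests used limma 3.58.1 in R 4.3.3 on log2(CPM + 0.5), so differences of low genes are understated, with trended variance, 2-sided p adjusted over all genes by Benjamini-Hochberg, and a call at an adjusted p under 0.1. Genes had to reach 1 CPM in a number of libraries equal to the size of the smaller group. Fasting was tested per nucleus with batch as covariate, and nuclei were compared over all libraries with mouse as block, since numbers in the titles were read as mouse numbers. Deviations from group means had a median correlation of 0.061 within a mouse (57 pairs) and 0.048 between mice of the same batch and state (51 pairs). Separate mice are the replicates. The p values of the fasting fits measure the spread between mice. With mouse as a block, those of the comparisons between nuclei measure the spread left within mice.

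On simulated reads the ARC fit recovered 84% of 200 doubled genes with 16 false calls of 184, the DMH fit 94.5% with 29 of 218, and the F-test of the fasting change 85% with 18 of 188. PVN and VMH, with no gene changed, gave 0 calls. The comparison of mouse means recovered 200 of 200 but gave 46 false calls of 246, or 18.7% against a nominal 10%. Its restriction to 10 mice and to genes of at least 5 CPM, and the limit of false calls it had to meet, were set after earlier forms missed tighter limits on simulated data, so its calls are too lenient.

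The members and lists were chosen with earlier results of these data known. Named genes were the members, the other measured tubulins, the genes with the highest correlation to each member, list genes past the threshold and the leading cell type markers. Coding bases came from GENCODE M21 transcripts. Those of Tuba1a are not reported here. Alternatives were other pseudocounts, filters and scalings, no batch covariate, no mouse block or a random one, and each library or mouse left out.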

Additional observations from a re-analysis of the deposited data

Results flagged for a closer look

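Of 48 sets of libraries of 1 gene, nucleus and state, 3 held a library far from the others, where chance flags about 5% of sets. Tubb4a was at 1151 CPM in the fasted PVN library of mouse Fast-86, with the 4 others at 732 to 796 CPM. Tubb4a was at 1072 CPM in the fed PVN library of mouse Fed-111, with the 4 others at 660.2 to 725 CPM. Both are the only batch 1 libraries of their groups. Tubb4b was at 319 CPM in the fed PVN library of mouse Fed-125, of batch 2, with the 4 others at 253 to 268 CPM.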

How the results depend on the processing

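Counts of genes called by fasting moved most. Without batch as a covariate PVN had 3, VMH 1, ARC 0 and DMH 0, where the fits with batch called 35, 2, 17 and 1. A pseudocount of 0.1 gave 4 in ARC, and no filter on low values gave 5. Leaving out each library in turn gave PVN 2 to 31, ARC 3 to 23, VMH 1 to 5 and DMH 1 to 2. The test of whether the fasting change differs between nuclei gave 0 to 1 genes without each mouse, and the comparison of mouse means gave 0 in every case. The cause of these moves was not tested, though fits with a library or mouse left out also held fewer samples. Counts of genes that differ in level between nuclei stayed within 1.5 times under every alternative tried.

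No fasting result of the 5 tested members passed under any of these alternatives. Directions turned only among differences near 0. Leaving out each library gave Tubb4a -0.11 to 0.065 in ARC, Tubb2a -0.018 to 0.21 in DMH and Tubb4b -0.13 to 0.023 in PVN. For levels, leaving out each mouse gave -0.034 to 0.076 for Tuba1a in ARC minus DMH, -0.042 to 0.070 for Tubb2a and -0.073 to 0.0043 for Tubb4a in DMH minus PVN, and -0.10 to 0.045 for Tubb4b in DMH minus VMH. Scaling to the sum of listed genes turned Tuba1a in ARC minus VMH to 0.016 and Tubb4b in DMH minus VMH to 0.026. It also took the calls of Tubb4b in ARC against VMH (adjusted p = 0.131) and DMH (0.131). Median-ratio scaling also took the Tubb4b call in ARC against DMH (0.120), and gave one in DMH against PVN (0.091) and in PVN against VMH (0.089).

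Without mouse as a block, the log2 difference of Tuba1a was -0.22 in ARC minus PVN and 0.18 in PVN minus VMH, neither called, and no other call of a member changed. A paired analysis within a nucleus was not possible because each mouse was in 1 state. Depth was at least 1.94 M reads, so every member was well above the filter, and the limits are the number of mice and the sharing of sequence by Tubb2a, Tubb2b, Tubb4b and Tuba1a.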
